A study of Homo sapiens with 9 samples.

Results

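Small cell lung cancer (SCLC) is sorted into subtypes by the transcription factors its cells express, and 9 such factors were followed here: NEUROD1, INSM1, SOX2, NKX2-1, FOXA2, PROX1, REST, POU2F3 and YAP1. Members were the Affymetrix probe sets annotated to exactly 1 gene symbol on this list, whatever their values. They were 23 probe sets for 8 of the 9 genes, of 54613 probe sets that are not Affymetrix controls. SOX2 and PROX1 had 4 probe sets each, FOXA2, REST and YAP1 had 3 each, and INSM1, NKX2-1 and POU2F3 had 2 each. No probe set carried the symbol NEUROD1 alone, so NEUROD1 was not analysed here.

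The cells were H69, an established human SCLC line of neuroendocrine type, and all groups came from this 1 line. They were kept for 24 h with PIK75 at 100 nM, with TGX221, its dose given as 1 mM, or with the vehicle DMSO as control, with 3 arrays per group. PIK75 and TGX221 both inhibit PI3K, the family of enzymes that phosphorylate membrane inositol lipids downstream of growth factor receptors. PIK75 is known for its action on the alpha isoform and TGX221 for its action on the beta isoform. Whether that TGX221 unit is right is uncertain, so the inhibitors are not compared at matched doses. Controls are labelled as untreated, while the protocol describes DMSO. Nothing says that the arrays of a group come from separate cultures, so each p rests on a spread that may be technical.

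In SCLC, INSM1 is a zinc finger factor that drives the neuroendocrine programme, and NEUROD1 is a basic helix-loop-helix (bHLH) factor that defines a neuroendocrine subtype. SOX2, FOXA2, NKX2-1 and PROX1 are factors of foregut, lung and neural development that neuroendocrine tumours often keep. REST is the repressor that silences neuronal genes in other cell types. POU2F3, the master factor of tuft cells, and YAP1, the coactivator restrained by the Hippo pathway, mark SCLC with little neuroendocrine character.

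Every value below is a log2 value from RMA (robust multi-array average), which subtracts background, forces the arrays to 1 common distribution and sums the probes of a probe set. A difference of 1 therefore means a 2-fold change, and levels of different probe sets cannot be ranked because their probes bind with different strength. A probe set was called higher or lower when limma gave an adjusted p below 0.05 after Benjamini-Hochberg adjustment over all 54613 probe sets. The probe set medians of the arrays lay between 7.26 and 7.33. The interquartile range of an array was 2.54 to 2.58 with PIK75, 2.67 to 2.69 with TGX221 and 2.70 to 2.71 in control. Bacterial RNA added just before hybridization read 0.35 higher with PIK75 than in control, and the difference between the 3' and 5' probe sets of actin, a sign of RNA integrity, was 0.39 higher. PIK75 replicate 5 stood apart in that measure, at 1.13, against 0.47 and 0.54 on the other PIK75 arrays. The same difference for the gene GAPDH was small, at -0.002, 0.02 and 0.08 with PIK75 and -0.05, -0.01 and 0.01 in control. Fits were repeated with arrays centred on this bacterial RNA (the hybridization spikes) and with the actin difference as a covariate, as given below. Whether the spike or the actin difference caused any result was not tested.

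The neuroendocrine markers of SCLC, 13 in all, were each measured, and with PIK75 2 were higher and 8 lower (0 and 12 with arrays centred on the hybridization spikes), against 33.3% higher and 24.7% lower over all 19775 genes. Their median level was 11.52, and among probe sets with a mean of 9 or more 24.1% were higher and 46.8% lower. With the hybridization spikes 68.8% of all probe sets were lower. In bulk RNA, fewer cells of a type and less RNA per cell cannot be told apart. The mean level of the 13 neuroendocrine markers per array was 10.95 to 11.01 with PIK75, 11.39 to 11.43 with TGX221 and 11.38 to 11.39 in control. Of 18 markers of fibroblasts, leukocytes, endothelium and squamous epithelium, 11 were called with PIK75 against control, and all 11 were higher. These counts rest on the scaling: with poly-A spikes 1 of 6 fibroblast, 1 of 5 leukocyte, 0 of 4 endothelial and 0 of 3 squamous markers were higher, and with the hybridization spikes none of the 18 was higher and 1, 1, 1 and 2 of them were lower. The mean of the 6 fibroblast markers was 7.74 to 7.84 with PIK75, 7.53 to 7.66 with TGX221 and 7.51 to 7.56 in control. Of 14 genes of liver, muscle, retina, testis, red cells and skin, 6 were called with PIK75 against control, and all 6 were higher (1 with poly-A spikes, and 0 higher and 8 lower with the hybridization spikes). Over all probe sets, 9.02% were higher with poly-A spikes, and 1.55% were higher and 68.8% lower with the hybridization spikes. The part of these marker shifts in the member results was not tested. No probe set reads 0 on this scale, so these markers give no absolute test of other cells.

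**Figure D1:**
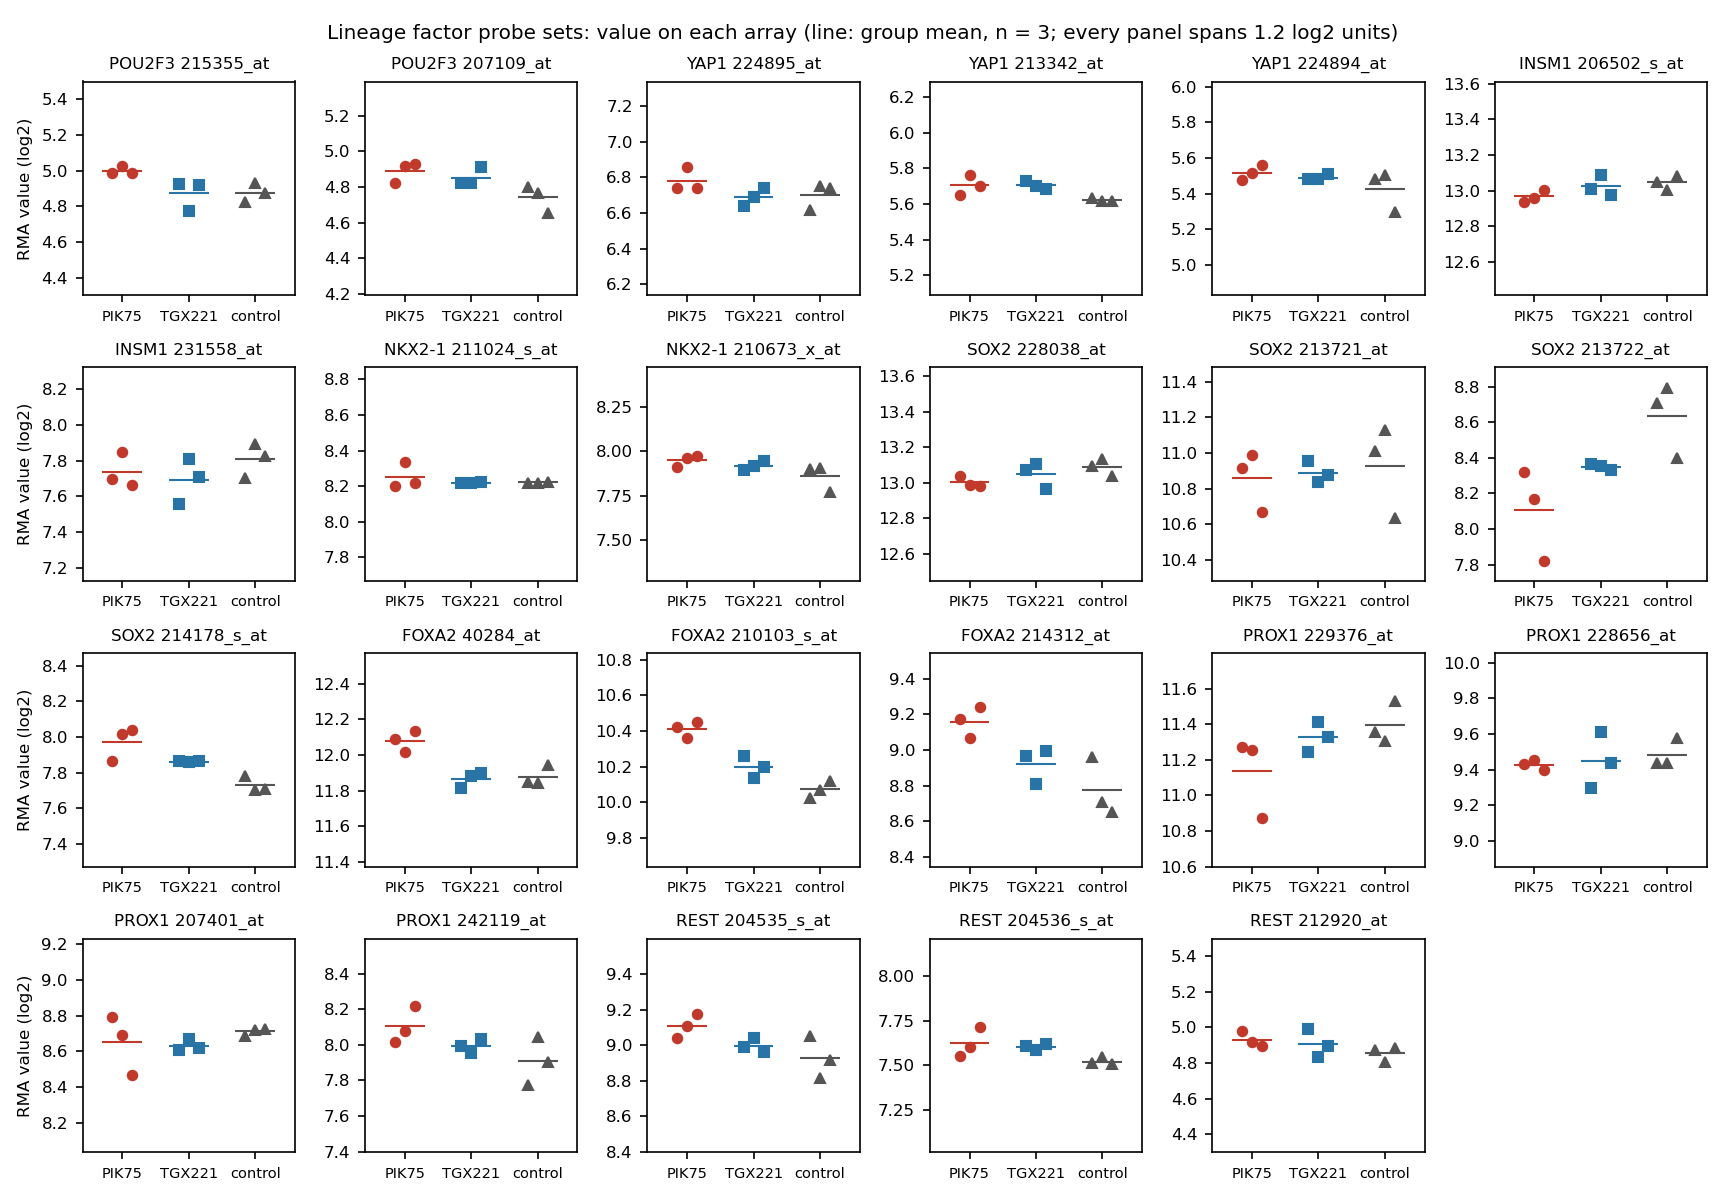
RMA value (log2) on each array for the 23 member probe sets, 1 panel each, with PIK75, TGX221 and control from left to right, a point per array and a line at the group mean (n = 3). All panels have the same height in log2 units. The PIK75 points lie above all control points for the 3 FOXA2 probe sets, and SOX2 213722_at shows the lowest PIK75 points against control.

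With PIK75, 6 of the 23 member probe sets were higher and 2 lower than in control, and 15 were not called. The shares were 26.1% and 8.7%, against 30.3% higher and 19.9% lower over all probe sets. This split rests on the scaling: with arrays centred on the hybridization spikes, 0 members were higher and 17 lower, against 1.55% and 68.8% of all probe sets, and with poly-A spikes 2 members and 9.02% of all probe sets were higher. As deposited, all 3 FOXA2 probe sets were higher, SOX2 and PROX1 each had 1 probe set higher and 1 lower, REST had 1 higher, and both INSM1 and both NKX2-1 probe sets were not called. The median change of the members was 0.08, as was that of all probe sets (0.08). A change of at least 1.5-fold was called for 0 members in either direction by limma, against 1.21% higher and 8.20% lower over all probe sets, while unadjusted p was below 0.05 for 7 higher and 2 lower members. The 95% interval lay inside 1.5-fold either way for 22 of 23 members and for 84.1% of all probe sets. Among probe sets with a mean of 9 or more, it did so for 8 of 8 members and for 65.1% of all 10700. In that range 3 members were higher and 1 lower, against 24.1% higher and 46.8% lower over all 10700. PIK75 and control arrays did not overlap for 10 higher and 4 lower members, against 36.2% and 21.4% of all probe sets.

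**Figure D2:**
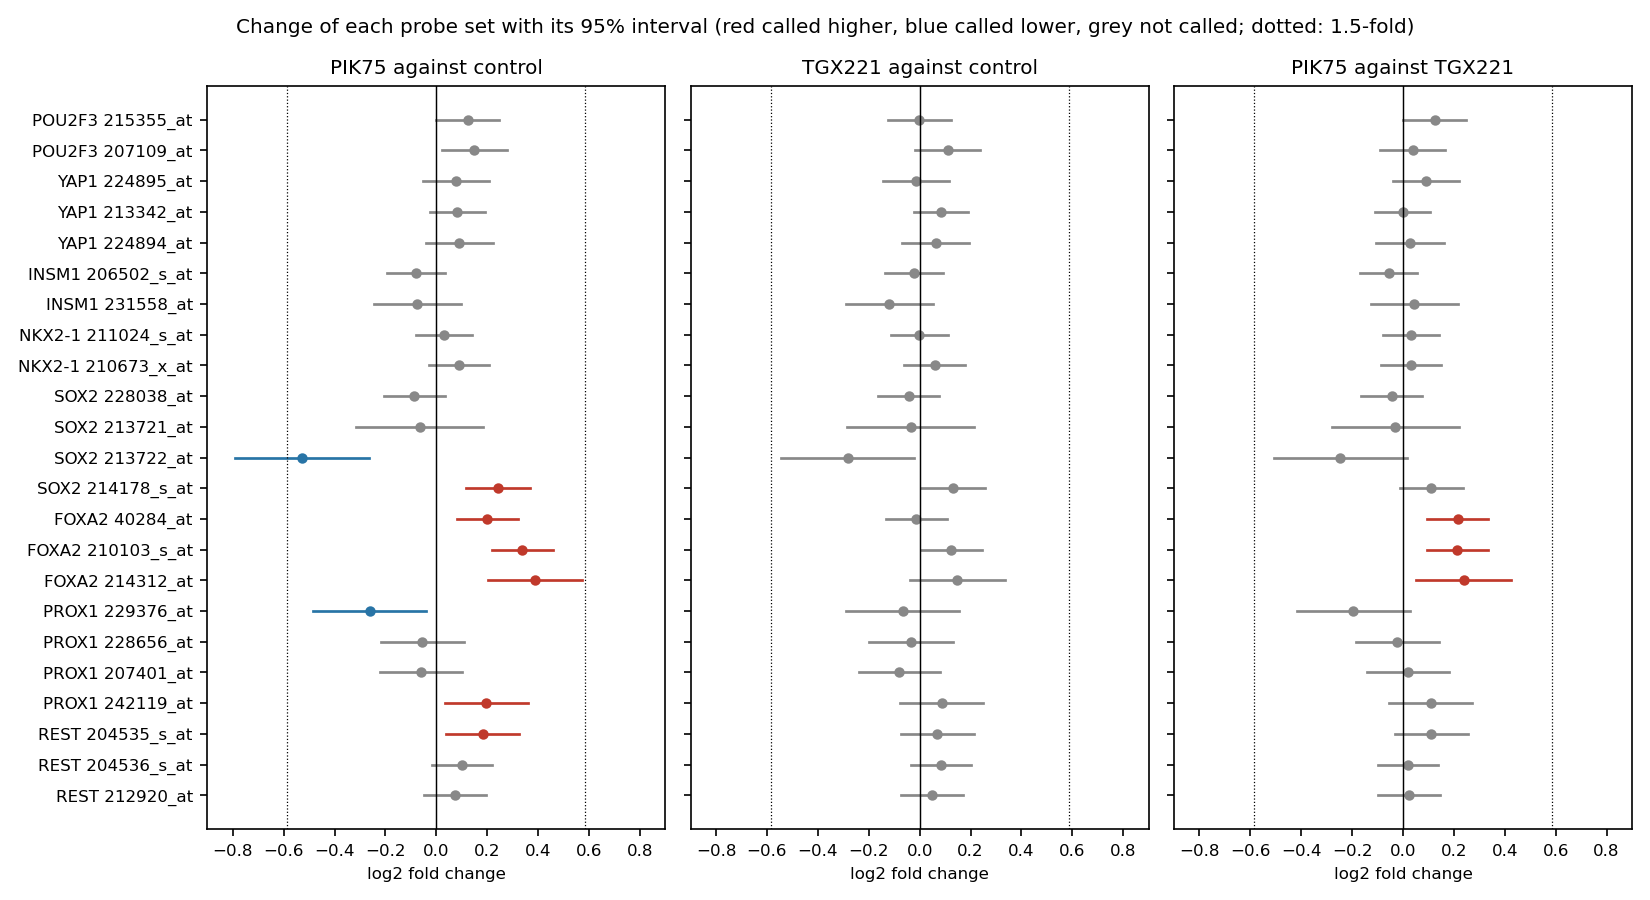
Log2 fold change of each member probe set with its 95% interval (limma, 3 arrays per group), for PIK75 against control, TGX221 against control and PIK75 against TGX221. Red points were called higher and blue points lower at adjusted p below 0.05, and dotted lines mark 1.5-fold. The 3 FOXA2 probe sets are red in the first and the third panel, and no point is coloured in the panel of TGX221 against control. With arrays centred on the hybridization spikes, FOXA2 40284_at and 210103_s_at read -0.15 and -0.01 against control.

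INSM1, the factor of neuroendocrine differentiation, was measured by 2 probe sets, and neither was called as deposited. INSM1 206502_s_at read 12.94, 12.96 and 13.01 with PIK75, 13.01, 13.09 and 12.97 with TGX221 and 13.05, 13.01 and 13.08 in control. The PIK75 arrays lay just below the control arrays, and the TGX221 arrays overlapped both. The change with PIK75 was -0.08 and not called (95% interval -0.19 to 0.03, adjusted p = 0.219, limma). INSM1 231558_at read 7.70, 7.85 and 7.66 with PIK75, 7.55, 7.81 and 7.71 with TGX221 and 7.70, 7.89 and 7.83 in control. Its groups overlap, and the change with PIK75 was -0.07 (adjusted p = 0.440). With arrays centred on the hybridization spikes both were called lower, at -0.43 for 206502_s_at (adjusted p = 3.91e-05) and -0.43 for 231558_at (adjusted p = 5.98e-05).

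SOX2, a factor of stem and progenitor cells and of neural and lung lineages, gave different answers from its 4 probe sets. SOX2 228038_at read 13.04, 12.99 and 12.98 with PIK75, 13.07, 13.11 and 12.96 with TGX221 and 13.10, 13.13 and 13.04 in control. The PIK75 arrays lay just below the control arrays, and the change of -0.09 was not called (95% interval -0.21 to 0.03, adjusted p = 0.201). SOX2 213721_at read 10.92, 10.99 and 10.67 with PIK75, 10.95, 10.84 and 10.88 with TGX221 and 11.01, 11.13 and 10.64 in control. Its groups overlap, and the 95% interval of the PIK75 change was -0.32 to 0.18. With the hybridization spikes both were called lower, at -0.44 for 228038_at (adjusted p = 3.22e-05) and -0.42 for 213721_at (adjusted p = 0.00139).

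The other SOX2 probe sets were called in opposite directions. SOX2 213722_at read 8.32, 8.17 and 7.82 with PIK75, 8.37, 8.36 and 8.33 with TGX221 and 8.71, 8.79 and 8.40 in control. Every PIK75 and every TGX221 array lay below every control array, with the lowest value on PIK75 replicate 5. The fall with PIK75 was 1.44-fold (log2 -0.53, SE 0.12, adjusted p = 0.00364, limma). With the actin difference as a covariate it was -0.24 and not called (adjusted p = 0.0737). SOX2 214178_s_at read 7.86, 8.02 and 8.04 with PIK75, 7.86, 7.86 and 7.86 with TGX221 and 7.78, 7.70 and 7.71 in control. The same value stood on PIK75 replicate 1 and TGX221 replicates 2 and 5. All PIK75 and TGX221 arrays lay above all control arrays. It rose by 0.24 with PIK75 (SE 0.06, adjusted p = 0.00451), but the value was -0.11 with arrays centred on the hybridization spikes. The call was also lost with poly-A spikes (0.16, adjusted p = 0.237), with the loess scaling (0.12, adjusted p = 0.101) and with the actin covariate (0.19, adjusted p = 0.0671). The SOX2 locus lies within the noncoding gene SOX2-OT in RefSeq, and the strand and exact target of each probe set were not used here.

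FOXA2, a forkhead pioneer factor of foregut endoderm, was called higher with PIK75 in all 3 of its probe sets as deposited, but none of them was called with arrays centred on the hybridization spikes. FOXA2 40284_at read 12.09, 12.02 and 12.13 with PIK75, 11.81, 11.88 and 11.90 with TGX221 and 11.85, 11.84 and 11.95 in control. FOXA2 210103_s_at read 10.42, 10.36 and 10.45 with PIK75, 10.26, 10.13 and 10.19 with TGX221 and 10.03, 10.07 and 10.12 in control. FOXA2 214312_at read 9.17, 9.07 and 9.24 with PIK75, 8.97, 8.81 and 8.99 with TGX221 and 8.96, 8.71 and 8.65 in control. In each of the 3, all PIK75 arrays lay above all TGX221 and all control arrays. FOXA2 40284_at and 210103_s_at are annotated to the same sequence record, so the 3 are not fully independent readings.

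The FOXA2 rises with PIK75 were 1.15-fold, 1.26-fold and 1.31-fold. On the log2 scale they were 0.20 for 40284_at (SE 0.05, adjusted p = 0.0102), 0.34 for 210103_s_at (SE 0.05, adjusted p = 0.000355) and 0.39 for 214312_at (SE 0.08, adjusted p = 0.0029), all by limma. In the same order, the calls held in 17 of 21, 18 of 19 and 18 of 19 other settings. With arrays centred on the hybridization spikes the FOXA2 changes were -0.15, -0.01 and 0.03, and none was called. FOXA2 40284_at was also not called with arrays shifted to the same median (0.14, adjusted p = 0.0562), with poly-A spikes (0.12, adjusted p = 0.419) and with the actin covariate (0.14, adjusted p = 0.137).

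NKX2-1, the lung and thyroid lineage factor, had the smallest span of group means of the 8 genes, 0.03 for its brightest probe set. NKX2-1 211024_s_at read 8.20, 8.33 and 8.22 with PIK75, 8.22, 8.22 and 8.22 with TGX221 and 8.22, 8.22 and 8.23 in control. The same value stood on 4 of these arrays, and 7 member probe sets and 45.5% of all probe sets share a value between arrays. Its change with PIK75 was 0.03 (95% interval -0.08 to 0.14, adjusted p = 0.635). NKX2-1 210673_x_at read 7.91, 7.96 and 7.97 with PIK75, 7.89, 7.92 and 7.94 with TGX221 and 7.90, 7.91 and 7.77 in control. All PIK75 arrays were above all control arrays by a narrow margin, and the change of 0.09 was not called (adjusted p = 0.187). With the hybridization spikes both were called lower, at -0.32 for 211024_s_at (adjusted p = 0.000558) and -0.26 for 210673_x_at (adjusted p = 0.00256).

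PROX1, a homeobox factor of neural progenitors and lymphatic endothelium, had 2 called probe sets in opposite directions. PROX1 229376_at read 11.27, 11.26 and 10.87 with PIK75, 11.25, 11.41 and 11.33 with TGX221 and 11.36, 11.30 and 11.53 in control. All PIK75 arrays lay below all control arrays, and PIK75 replicate 5 was the low one. The fall was 0.26 on the log2 scale, that is a change of -0.26 (SE 0.10, adjusted p = 0.0494). It was -0.13 and not called without PIK75 replicate 5 (adjusted p = 0.183). It was not called either with the actin covariate (-0.09, adjusted p = 0.549), with the loess scaling or without any 1 control or TGX221 array. In all, the call was lost in 13 of 21 other settings.

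PROX1 242119_at read 8.02, 8.07 and 8.22 with PIK75, 7.99, 7.96 and 8.03 with TGX221 and 7.77, 8.05 and 7.91 in control. Its PIK75 and control arrays overlap. It rose by 0.20 (adjusted p = 0.0463), but the call held in 4 of 19 other settings. It was lost without PIK75 replicate 5 (0.14, adjusted p = 0.162), PIK75 replicate 3, control replicate 1 (0.13, adjusted p = 0.180), control replicate 5 or any 1 TGX221 array. It was lost too with the same median (0.14, adjusted p = 0.154), poly-A spikes (0.11, adjusted p = 0.455), loess (0.08, adjusted p = 0.417) and the actin covariate (0.10, adjusted p = 0.433), and the value was -0.16 with the hybridization spikes. PROX1 228656_at and PROX1 207401_at each had a difference of -0.06 with PIK75 and were not called, but with the hybridization spikes both were called lower (-0.41 each).

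REST, the repressor of neuronal genes, was called higher in 1 of its 3 probe sets as deposited. REST 204535_s_at read 9.04, 9.11 and 9.18 with PIK75, 8.99, 9.04 and 8.96 with TGX221 and 9.05, 8.82 and 8.91 in control. The PIK75 and control arrays overlap at 1 control array. The rise was 0.18 (SE 0.07, adjusted p = 0.0375), and the call held in 9 of 21 other settings. It was lost without PIK75 replicate 5 (0.15, adjusted p = 0.116), PIK75 replicate 3 (adjusted p = 0.0797), control replicate 3 (0.13, adjusted p = 0.147), control replicate 5 (adjusted p = 0.0905) or TGX221 replicate 2 (adjusted p = 0.0513). It was lost too with the same median (0.13, adjusted p = 0.144), poly-A spikes (0.10, adjusted p = 0.525) and the actin covariate (0.13, adjusted p = 0.271), and the value was -0.17 with the hybridization spikes. REST 204536_s_at read 7.55, 7.60 and 7.71 with PIK75, 7.61, 7.59 and 7.62 with TGX221 and 7.51, 7.54 and 7.51 in control, with all PIK75 and TGX221 arrays above control. Its difference with PIK75 was 0.10 (adjusted p = 0.131), that of REST 212920_at was 0.07 (adjusted p = 0.278), and neither was called, but with the hybridization spikes both were called lower (-0.25 and -0.28).

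POU2F3 and YAP1, the factors of SCLC with little neuroendocrine character, were not called in any of their 5 probe sets as deposited. POU2F3 215355_at read 4.99, 5.03 and 4.99 with PIK75, 4.93, 4.78 and 4.92 with TGX221 and 4.83, 4.93 and 4.87 in control. POU2F3 207109_at read 4.82, 4.92 and 4.93 with PIK75, 4.82, 4.82 and 4.91 with TGX221 and 4.80, 4.77 and 4.66 in control. For both, all PIK75 arrays were above all control arrays, and the changes of 0.12 and 0.15 were not called (adjusted p = 0.0873 and 0.0525, limma). Both were called higher with a trended and robust spread (adjusted p = 0.041 and 0.019), as was the gene mean (0.14, adjusted p = 0.022). POU2F3 207109_at was so too without PIK75 replicate 1 or control replicate 1. Their means are low on this scale, at percentiles 3.7 and 2.4. Of probe sets with a mean under 6, 28.3% had all PIK75 arrays above control. YAP1 224895_at read 6.74, 6.86 and 6.74 with PIK75, 6.64, 6.69 and 6.74 with TGX221 and 6.62, 6.75 and 6.74 in control. Its groups overlap, and the differences of the 3 YAP1 probe sets with PIK75 were 0.08 to 0.09 and not called (adjusted p from 0.175 to 0.286). With the hybridization spikes all 5 POU2F3 and YAP1 probe sets were called lower (-0.20 to -0.27). POU2F3 overlaps the antisense gene POU2F3-AS1 and LOC105369531, and YAP1 overlaps the divergent gene YAP1-DT. NKX2-1 overlaps SFTA3 and NKX2-1-AS1, and PROX1 overlaps PROX1-AS1.

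The promoter windows show which letters stand beside these genes. RefSeq windows (GRCh38.p14) were found for 5 of the 9 genes, and 3 of the 7 windows, those with a CANNTG match, are given here. Every window holds at least 1 short motif known for the factor families of the members, and those of NEUROD1 and REST hold only GGGGNC. Capitals mark matches, on either strand, to CANNTG (bHLH factors), TGTTTAC (FOXA), GGAATG (TEAD, the partners of YAP1), CACTTG (NKX2-1, a form of CANNTG) and GGGGNC (a core of INSM1 sites). Each runs 5′ to 3′ over the 250 bases before the start of the gene:
SOX2, chr3:181711675-181711924, plus strand: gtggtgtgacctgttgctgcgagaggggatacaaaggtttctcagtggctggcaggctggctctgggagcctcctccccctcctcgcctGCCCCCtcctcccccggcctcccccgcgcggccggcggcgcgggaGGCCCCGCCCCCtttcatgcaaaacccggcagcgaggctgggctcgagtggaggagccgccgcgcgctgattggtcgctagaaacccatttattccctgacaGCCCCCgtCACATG
NKX2-1, chr14:36519557-36519806, minus strand: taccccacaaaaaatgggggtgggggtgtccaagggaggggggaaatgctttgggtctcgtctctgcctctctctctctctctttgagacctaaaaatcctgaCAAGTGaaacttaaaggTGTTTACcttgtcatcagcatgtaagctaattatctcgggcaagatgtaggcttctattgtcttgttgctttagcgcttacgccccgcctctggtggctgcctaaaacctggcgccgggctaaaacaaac
YAP1, chr11:102110197-102110446, plus strand: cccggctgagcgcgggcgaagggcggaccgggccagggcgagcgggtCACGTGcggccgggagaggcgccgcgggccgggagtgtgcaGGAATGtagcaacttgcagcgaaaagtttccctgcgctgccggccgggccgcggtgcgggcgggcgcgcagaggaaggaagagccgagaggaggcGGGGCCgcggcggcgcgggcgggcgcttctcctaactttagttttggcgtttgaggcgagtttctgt

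These 5 motifs are held by 61.8%, 2.98%, 11.9%, 9.5% and 60% of 35116 windows, in the order above. The NKX2-1 window has a FOXA match at -130 and a CACTTG match at -147, counted from the start of the gene. The YAP1 window has a TEAD match at -162 and a CANNTG match at -203, and the SOX2 window has a CANNTG match at -6. Also searched were ACAATG (SOX factors), ATGCAAAT (POU factors) and CAGATG (a form of CANNTG preferred by NEUROD1), and no window of the members held them. TGTTTGC, a variant of the FOXA motif, was found only in an NKX2-1 window not shown. A match is a description of letters and says nothing of binding.

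TGX221 left 0 of the 23 member probe sets called against control by limma, against 0.207% higher and 0.0623% lower over all probe sets. Unadjusted p was below 0.05 for 2 higher and 1 lower. Changes ran from -0.28 to 0.15, and all 23 intervals lay inside 1.5-fold either way, as did 99.3% of all probe sets. The lowest value was that of SOX2 213722_at (-0.28, 95% interval -0.55 to -0.02, adjusted p = 0.269). TGX221 and control arrays did not overlap for 5 higher and 2 lower members, against 10.9% and 10.7% of all probe sets. Both treatments are set against the same control arrays, so their changes against control are not independent.

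PIK75 set directly against TGX221 called 3 members higher and 0 lower by limma (unadjusted p below 0.05 in 4 higher and 0 lower), against 20.3% higher and 16.9% lower over all probe sets. The 3 were the FOXA2 probe sets, with differences of 0.21 for 40284_at (adjusted p = 0.00925), 0.21 for 210103_s_at (adjusted p = 0.00911) and 0.24 for 214312_at (adjusted p = 0.0446). With arrays centred on the hybridization spikes they were -0.07, -0.07 and -0.05, with 0 members higher and 17 lower, against 2.46% and 61.6% of all probe sets. With poly-A spikes they were 0.06, 0.06 and 0.09, and with the actin covariate 0.15, 0.18 and 0.23, and in neither case was any of the 3 called. FOXA2 214312_at was also not called without PIK75 replicate 1, without PIK75 replicate 5, without control replicate 3 or without any 1 TGX221 array (adjusted p from 0.0523 to 0.164). Its call was lost too with the same median (adjusted p = 0.083), array weights (0.0994) and the replicate block (0.113), in all in 12 of 19 other settings. The replicate block left FOXA2 40284_at uncalled as well (adjusted p = 0.0536). All 23 intervals lay inside 1.5-fold, against 86.8% of all probe sets, and arrays did not overlap for 4 higher and 1 lower member (29.0% and 19.0% of all probe sets). SOX2 213722_at was -0.25 and not called, but was called lower without PIK75 replicate 1 (-0.35, adjusted p = 0.0397), and with arrays centred on either kind of spike (poly-A -0.40, adjusted p = 7e-04; hybridization -0.53, adjusted p = 0.000315).

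Among the 34 other neural and neuroendocrine lineage factors measured, each by its brightest probe set, 11 were higher and 11 lower with PIK75, with the same background of 33.3% higher and 24.7% lower. SOX11, a progenitor factor, had a mean of 8.03 with PIK75 and 9.54 in control, with no overlap of arrays, and fell 2.85-fold (log2 -1.51, adjusted p = 3.23e-09). ST18 fell by 1.44 and MYT1L by 0.74, and both encode zinc finger factors of the MYT1 family. As the mean of its 4 probe sets ST18 was at -0.26. ELAVL4, a neuronal RNA-binding protein rather than a transcription factor, fell by 0.70 (-0.45 as the mean of its probe sets). NKX2-2, a homeobox factor of neural and endocrine cells chosen after its values were seen, fell by 0.79. Also chosen in that way, the rises of ONECUT2 (0.53), NHLH1 (0.51), NFIB (0.34) and ISL1 (0.31) were called, but NFIB and ISL1 were -0.01 and -0.04 with arrays centred on the hybridization spikes. ONECUT2 was at 0.31 as the mean of its probe sets, and ISL1 was not called with poly-A spikes. POU3F2 (-0.25) and MYT1 (-0.13) were not called, but POU3F2 was called lower with poly-A spikes and without control replicate 5, and MYT1 with arrays shifted to the same median. The lineage list was at 9 higher and 10 lower without PIK75 replicate 5, and at 1 higher and 21 lower with the hybridization spikes. Over all probe sets, 24.8% were higher and 18.5% lower without that array, and 1.55% higher and 68.8% lower with these spikes.

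**Figure D3:**
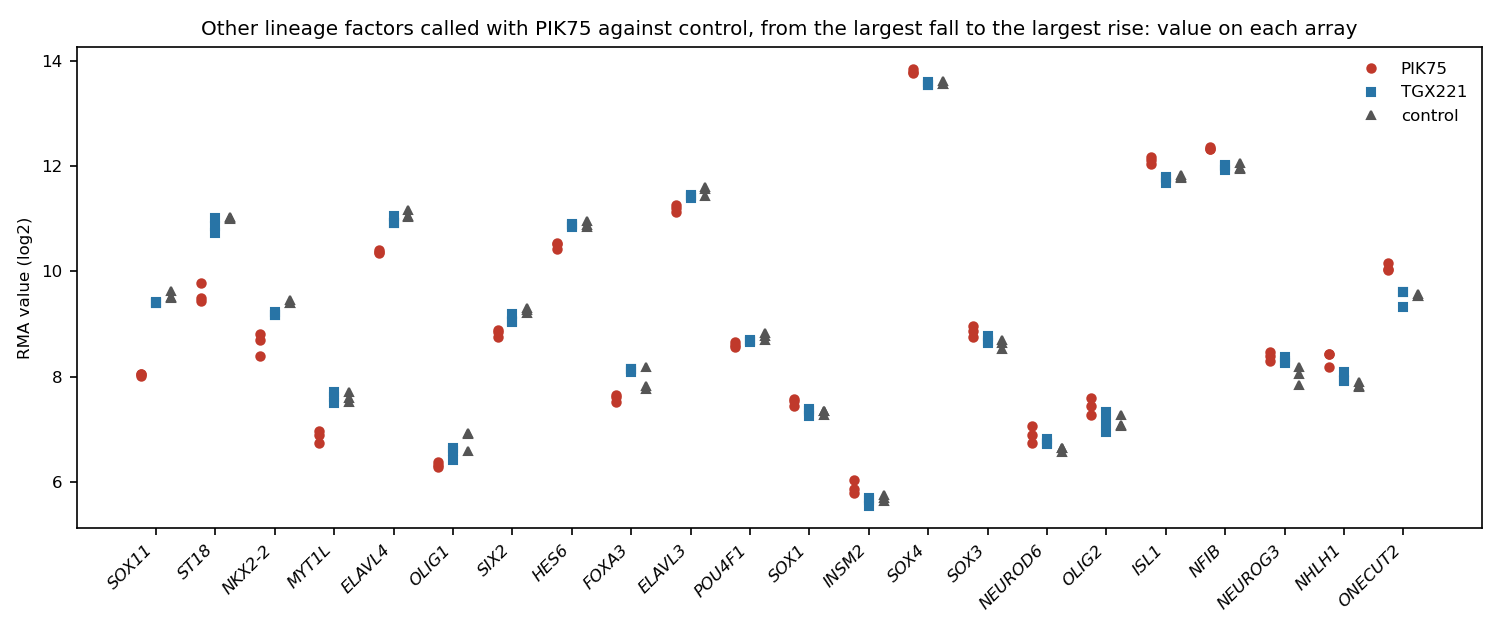
RMA value (log2) on each array for the 22 other lineage factors called with PIK75 against control, ordered from the largest fall (SOX11) to the largest rise (ONECUT2), with PIK75 left of TGX221 and control in each gene. ELAVL3 and ELAVL4 encode RNA-binding proteins, and NFIB, ISL1 and SOX4 are among the rises smaller than the 0.35 shift of the hybridization spikes. The 3 PIK75 points of SOX11 lie near 8.0 and its control points near 9.5.

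Among the bHLH partners and their inhibitors, 2 E protein and 3 ID genes fell with PIK75. Of 7 measured genes for E proteins, which pair with bHLH factors, and ID proteins, which block that pairing, 5 were called, all lower, against 24.7% of all genes and 46.8% of probe sets with a mean of 9 or more. The list median was -0.38, against 0.09 over all genes and -0.13 over probe sets with a mean of 9 or more. TCF12 read 11.36, 11.31 and 11.23 with PIK75, 11.95, 12.10 and 11.93 with TGX221 and 11.96, 11.99 and 12.11 in control, so its PIK75 arrays did not meet the others. It fell by 0.72 (SE 0.07, adjusted p = 3.27e-06), and by 0.38 as the mean of its probe sets. ID1 fell by 0.45, ID4 by 0.48 and ID3 by 0.38. TCF4, named after its values were seen, fell by 0.25 but was not called with the loess scaling (-0.12, adjusted p = 0.0777). ID2 (0.13) and TCF3 (0.02) were not called, but ID2 was called higher with loess (0.26, adjusted p = 0.00393) and without control replicate 5 (0.17, adjusted p = 0.0408), and TCF3 as the mean of its probe sets (0.11, adjusted p = 0.0306). Of 13 other TCF3 probe sets, 7 were called higher and 2 lower. The count was again 5 lower without PIK75 replicate 5 and with the actin covariate, and it was 7 lower with the hybridization spikes. In the same order, 18.5%, 16.5% and 68.8% of all probe sets were lower.

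REST targets and cofactors moved in both directions. Of 37 REST target genes of neurons, 5 were higher and 15 lower with PIK75, against 33.3% and 24.7% of all genes, with a median of -0.07. This list shares genes with the neuroendocrine markers, among them SNAP25, CHGA and STMN2, so the counts of these lists are not independent. The vesicle fusion protein SNAP25 fell 2.82-fold. On the log2 scale the adhesion molecule L1CAM fell by 1.18, the monoamine transporter SLC18A1 by 0.81 and RUNDC3A by 0.74. The hormone granule gene CHGA (-0.05) and the microtubule regulator STMN2 (-0.06) were not called. GRIN1, a glutamate receptor subunit named after its values were seen, was the 1 gene of these lists called with TGX221 against control, where 0.278% of all genes were higher and 0.0455% lower (0.29, adjusted p = 0.0475, limma). With TGX221 against control, no probe set at all was called higher with only the 2 groups, the replicate block or the actin covariate. The same held without any 1 control array, without PIK75 replicate 1 or 3 and without TGX221 replicate 2 or 5. The GRIN1 call with TGX221 was therefore lost in all of these settings. GRIN1 rose by 0.42 with PIK75, a call that held in 20 of 21 other settings, with values down to 0.07. Of 16 REST cofactors, 1 was higher and 4 lower with PIK75: the corepressor RCOR1 fell by 0.59, the methyltransferase EHMT1 by 0.55 and the deacetylase HDAC1 by 0.29, while BTRC, part of the ligase that degrades REST, rose by 0.37. As the mean of their probe sets BTRC was -9e-04 and EHMT1 -0.10 (adjusted p = 0.0538), and neither was called. In that setting RCOR1 was at -0.29, L1CAM at -0.46 and RUNDC3A at -0.37. The targets were at 3 higher and 13 lower without PIK75 replicate 5, 2 higher and 12 lower with the actin covariate, and 0 higher and 32 lower with the hybridization spikes, under which 14 cofactors were lower. In the same order of settings, 24.8%, 17.8% and 1.55% of all probe sets were higher, and 18.5%, 16.5% and 68.8% lower. Other probe sets were called in the opposite direction for L1CAM (1 of 1), EHMT1 (1 of 2), ST18 (1 of 3), ID4 (1 of 4) and BTRC (1 of 4).

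Of 12 foregut genes around FOXA2, 5 were higher and 5 lower with PIK75, against 33.3% and 24.7% of all genes. FOXA1 and FOXA3 stand both here and among the other lineage factors. GATA6 rose by 0.47 and GATA4 by 0.45, both zinc finger factors of endoderm. The cadherin CDH1 fell by 1.11 and the secreted AGR2 by 0.69, while EPCAM (-0.02) and FOXA1 (-0.12) were not called, though FOXA1 was called lower with arrays shifted to the same median (-0.17, adjusted p = 0.0284). As means of their probe sets, CDH1 was at -0.47, GATA6 at 0.27 and GATA4 at 0.21. Of 12 lung genes downstream of NKX2-1, 5 were higher and 3 lower. MUC1 fell by 1.01, the lamellar body transporter ABCA3 by 0.58 and LPCAT1 by 0.40, and SCGB1A1 rose by 0.41. MUC1 was at -0.51 as the mean of its probe sets. Without PIK75 replicate 5 the foregut counts were 3 higher and 5 lower, and the lung counts 4 and 3. With arrays centred on the hybridization spikes, the foregut counts were 0 and 8 and the lung counts 0 and 6. Over all probe sets, 24.8% were higher and 18.5% lower without PIK75 replicate 5, and 1.55% higher and 68.8% lower with these spikes.

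The programmes of POU2F3 and YAP1 also split. Of 16 tuft cell genes, 8 were higher and 4 lower with PIK75, against 33.3% and 24.7% of all genes, with a median of 0.19. The kinase DCLK1 fell by 1.05, SOX9 by 0.68 and ASCL2 by 0.46, whereas CHAT rose by 0.33 but read -0.02 with the hybridization spikes. Of 25 YAP, TEAD and Hippo genes, 6 were higher and 5 lower, with a median of 0.09. The scaffold AJUBA rose by 0.57, and the Hippo scaffold SAV1 fell by 0.81. As means of their probe sets, DCLK1 was at -1.80, ASCL2 at -0.29, AJUBA at 0.38 and SAV1 at -0.49, and SAV1 was not called with the actin covariate (-0.45, adjusted p = 0.0517). TEAD2 (0.29) and the receptor AXL (0.27) were called higher but were -0.06 and -0.09 with the hybridization spikes and not called with poly-A spikes. With the hybridization spikes 0 tuft genes were higher and 8 lower, and 1 Hippo gene was higher and 18 lower, against 1.55% and 68.8% of all probe sets. The Hippo counts were 5 higher and 2 lower without PIK75 replicate 5, and 3 higher and 1 lower with the actin covariate. Over all probe sets, 24.8% were higher and 18.5% lower without that array, and 17.8% higher and 16.5% lower with this covariate.

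**Figure D4:**
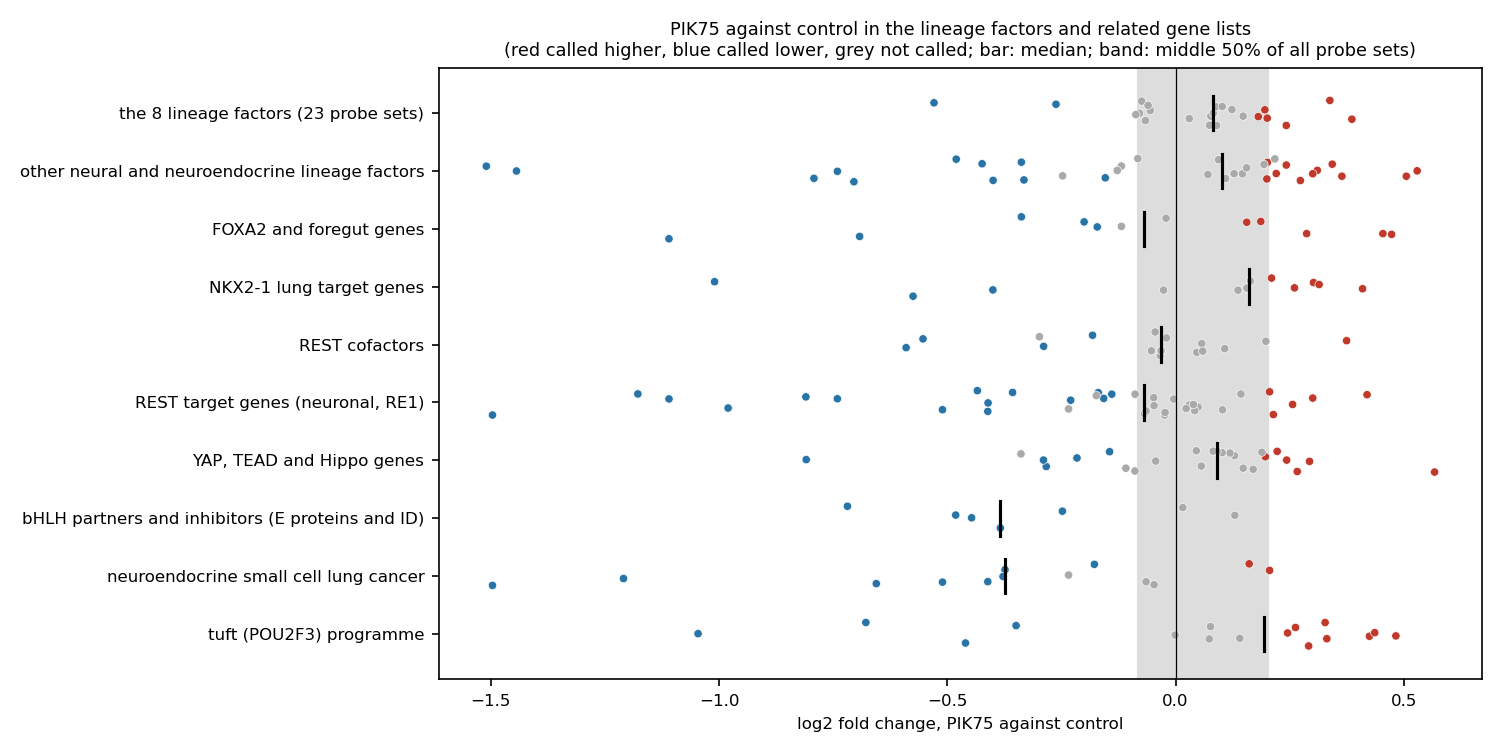
Log2 fold change with PIK75 against control for the member probe sets and for the genes of 9 related lists (1 brightest probe set per gene). Red points were called higher, blue points lower and grey points were not called, black bars are medians, and the grey band holds the middle 50% of all probe sets. The member median of 0.08 lies inside the band, and the bHLH list median of -0.38 lies left of it.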

How the data were processed

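The deposited series table holds log2 values for 54675 probe sets on 9 Affymetrix arrays, made with RMA per the submitters' processing notes (version not given in the sources used here). Labelled cRNA came from total RNA, per the labels' protocols. The log2 values were used as deposited, and 0 sample columns were unmapped.

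Symbols came from the platform annotation: 41091 probe sets carry 1 symbol, 1801 several and 11721 none, and 62 are controls. For gene lists, each of 19775 genes was represented by the single-symbol probe set with the highest mean, and 204 of 228 list entries were measured. The fit was limma (lmFit, eBayes) over 54613 probe sets with 3 group means (6 residual and 5.63 prior degrees of freedom). P-values were adjusted by Benjamini-Hochberg. An exact test of 3 arrays against 3 cannot go below p = 0.1 and was not used.

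The members and lists were chosen with earlier results of these data known. Named by rule were all members and, per list, up to 4 called genes with the smallest p and a group mean of at least 6, and up to 2 uncalled genes with the highest mean. No brightest probe set of a member gene spanned 0.5 between group means, so no genes of like pattern were named. The number of arrays limits precision. In simulated PIK75 and control arrays (54613 probe sets), 18 of 50 changes of 1.25-fold, 40 of 50 of 1.5-fold and 50 of 50 of 2-fold were recovered, with 6 false calls. In the real arrays 50.2% of all probe sets were called with PIK75 against control. The adjustment is less strict when so many are called, so the simulated rates do not give the sensitivity of these data. Alternatives were other scalings, filters, gene summaries, spreads, weights, thresholds, a replicate block and leaving out each array; the actin covariate and all list results under these settings were added after seeing the data. R 4.3.3, limma 3.58.1, Python 3.11.15, numpy 2.4.6, pandas 2.3.3 and matplotlib 3.10.9 were used.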

Additional observations from a re-analysis of the deposited data

How the results depend on the processing

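The member counts depended on scaling. Against control with PIK75, the 6 higher probe sets became 3 with arrays shifted to the same median, 2 with poly-A spikes, 0 with hybridization spikes, 2 of 8 with 1 brightest probe set per gene, 3 of 8 with the mean per gene, 2 with the actin covariate, 0 with a 1.5-fold minimum and 3 at adjusted p below 0.01, and 4 to 7 without 1 array. The 2 lower ones became 17 with hybridization spikes, 1 with cyclic loess, with the brightest probe sets, with only the 2 groups, with array weights, with the replicate block and at adjusted p below 0.01, 0 with the mean per gene, the actin covariate and the 1.5-fold minimum, and 1 to 2 without 1 array. Of all probe sets, 16554 were higher and 10846 lower with PIK75 against control, against 10317 higher with the same median, 4928 with poly-A spikes, 8709 with cyclic loess, 9722 with the actin covariate and 847 (with 37576 lower) with hybridization spikes. For TGX221 against control both counts were 0 under all 23 settings run. For PIK75 against TGX221, the 3 higher ones became 0 with poly-A spikes, hybridization spikes, the actin covariate and a 1.5-fold minimum, 1 with the brightest probe sets, the mean per gene and the replicate block, and 2 to 3 without 1 array; the 0 lower ones became 2 with poly-A spikes, 17 with hybridization spikes, 1 with the replicate block and 0 to 1 without 1 array. Centring on hybridization spikes shifts every change with PIK75 against control by the same amount, and it turned these log2 changes negative against control: POU2F3 215355_at -0.23, POU2F3 207109_at -0.20, YAP1 224895_at -0.27, YAP1 213342_at -0.27, YAP1 224894_at -0.26, NKX2-1 211024_s_at -0.32, NKX2-1 210673_x_at -0.26, SOX2 214178_s_at -0.11, FOXA2 40284_at -0.15, FOXA2 210103_s_at -0.014, PROX1 242119_at -0.16, REST 204535_s_at -0.17, REST 204536_s_at -0.25 and REST 212920_at -0.28. Against TGX221 it did so for POU2F3 207109_at -0.25, YAP1 224895_at -0.20, YAP1 224894_at -0.26, INSM1 231558_at -0.24, NKX2-1 211024_s_at -0.26, NKX2-1 210673_x_at -0.26, SOX2 214178_s_at -0.18, FOXA2 40284_at -0.072, FOXA2 210103_s_at -0.073, FOXA2 214312_at -0.049, PROX1 207401_at -0.27, REST 204536_s_at -0.27 and REST 212920_at -0.26. Among list genes it gave ID2 -0.22, TCF3 -0.34, SFTPB -0.19, CHAT -0.024, PTGS1 -0.21, IL25 -0.28, TEAD2 -0.058, AXL -0.085, AMOTL1 -0.25, NF2 -0.31, NFIB -0.0085 and ISL1 -0.041. With the mean of the probe sets, BTRC turned to -9e-04 and HDAC2 to 0.22. The cause of the spike difference was not tested. The labels state no pairing of arrays by replicate number. Same-numbered PIK75 and control arrays correlated at -0.073, 0.093 and -0.001 in their deviations, and PIK75 replicate 1 with control replicate 5 at 0.092. Same-numbered TGX221 and control arrays correlated at 0.053 and 0.005, and same-numbered PIK75 and TGX221 arrays at 0.071 and 0.224. With 3 arrays per group these values cannot decide whether arrays were paired. Of the single-gene results, 2391 kept their side of the threshold (124 of them uncalled in both settings and of the other sign), 75 lost a call, 48 gained one and 41 turned with a call on at least 1 side. RMA cannot show a change common to most genes, and 3 arrays per group limit what small changes can be called.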
